A study of Mus musculus with 12 samples.

Results

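The matrix metalloproteinases and their tissue inhibitors (TIMPs) were followed in chondrocytes treated with dexamethasone (DEX), a synthetic glucocorticoid. The set held 10 genes: the metalloproteinases Mmp2, Mmp3, Mmp9, Mmp11, Mmp13 and Mmp14, and the inhibitors Timp1, Timp2, Timp3 and Timp4. They were taken as the probe sets that the platform annotation assigns to these symbols alone, which gave 23 of the 45101 probe sets on the array and 10 of its 18194 named genes. Of the 23 probe sets, 20 averaged 50 or more in intensity in 1 group or several and were tested, among 20897 tested in all. These 20 covered 9 genes, since the probe set of Mmp11 stayed under that minimum in every group.

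Primary chondrocytes came from the tibiae, femurs and humeri of CD1 mouse embryos at embryonic day 15.5, were released with collagenase and grown as monolayers. There were 4 groups of 3 arrays each, cells with 100 nM DEX for 6 hrs, cells with the DMSO vehicle for 6 hrs, cells with 100 nM DEX for 24 hrs and cells with vehicle for 24 hrs, and in every group the replicate numbers were 1, 2 and 4. All groups shared fresh medium supplemented with ascorbic acid and beta-glycerophosphate, and no array analysed here was taken before that change. The study describes its replicates as independent cell isolations. A monolayer of freshly digested cartilage holds cells of several growth plate zones and can hold cells of the tissue around it, so that an intensity is a mean over those cells.

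Matrix metalloproteinases are zinc proteases that are made as inactive precursors and cut collagens, proteoglycans and other matrix proteins. In the growth plate they clear cartilage so that vessels and bone can follow, a step in which Mmp13, Mmp9 and Mmp14 are known to act. TIMPs bind the active site of these proteases and block it. The ligand-bound glucocorticoid receptor is known from many cell types to act both on its own DNA elements and by interfering with AP-1, a dimer of Fos and Jun family proteins that binds promoters of several metalloproteinase genes.

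Markers of the labelled cell type were present, since all 10 listed chondrocyte genes reached the minimum and were tested. Col2a1, the main cartilage collagen, had a mean intensity of 6218 with DEX and 5345 with vehicle at 6 hrs. At 24 hrs it had 5942 with DEX and 6751 with vehicle. Of these 10 genes 1, the cartilage matrix protein gene Chad, rose over both times (log2 fold change 0.97, adjusted p 0.0170 by limma), against 0.747% of all tested probe sets called. None of 6 neutrophil genes named on the array, 1 of 6 endothelial genes, 3 of 8 osteoclast genes and 6 of 12 macrophage genes reached the minimum. All 8 perichondrial or tendon fibroblast genes reached it too. Of 6 listed osteoblast genes 3 had a probe set assigned to their symbol alone, so the others could not be looked at. These 3 reached the minimum, Ifitm5 only through the DEX arrays at 24 hrs (mean 79.5), and Col1a1 is in the fibroblast list as well. The markers present were therefore not those of chondrocytes alone. Hybridization took place on 4 days, and each day had DEX and vehicle arrays of a single time point. Replicates 1 and 2 at 6 hrs, which are the 4 arrays hybridized on the third day, stood apart from the other 8: the 3′ minus 5′ difference of the Gapdh control probe sets was 0.63 on the log2 scale (0.49 to 0.74) on that day and -0.29 (-0.33 to -0.22) on the other days.

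Timp4 had higher intensities with DEX, most of all on probe set 1423405_at, and the other 8 tested genes had no probe set past the threshold of an adjusted p of 0.05 in the fit without a block. Of the 20 tested probe sets, none passed at 6 hrs, where 0.225% of all tested probe sets did. There 2 had an unadjusted p under 0.05 by limma, as had 764 of all 20897. At 24 hrs 1 rose, against 0.287% of all. Over both times 2 rose, against 0.747% of all, and both are those of Timp4. Both passed the intensity minimum only through the DEX arrays at 24 hrs. With no filter 1423405_at alone passed over both times, and the call of the other, 1450974_at, was lost in 8 of 12 fits that each left out 1 array. Except where another filter or test is named, tests were made with limma on log2 intensities with Benjamini-Hochberg adjustment over all 20897 probe sets. The median log2 fold change of the 20 probe sets over both times was -0.08, against -0.02 over all probe sets tested, and it ran from -0.24 without the DEX array to 0.05 without the vehicle array of replicate 4 at 6 hrs. As in any bulk sample, fewer cells of a type and less RNA per cell cannot be told apart in these values.

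**Figure D1:**
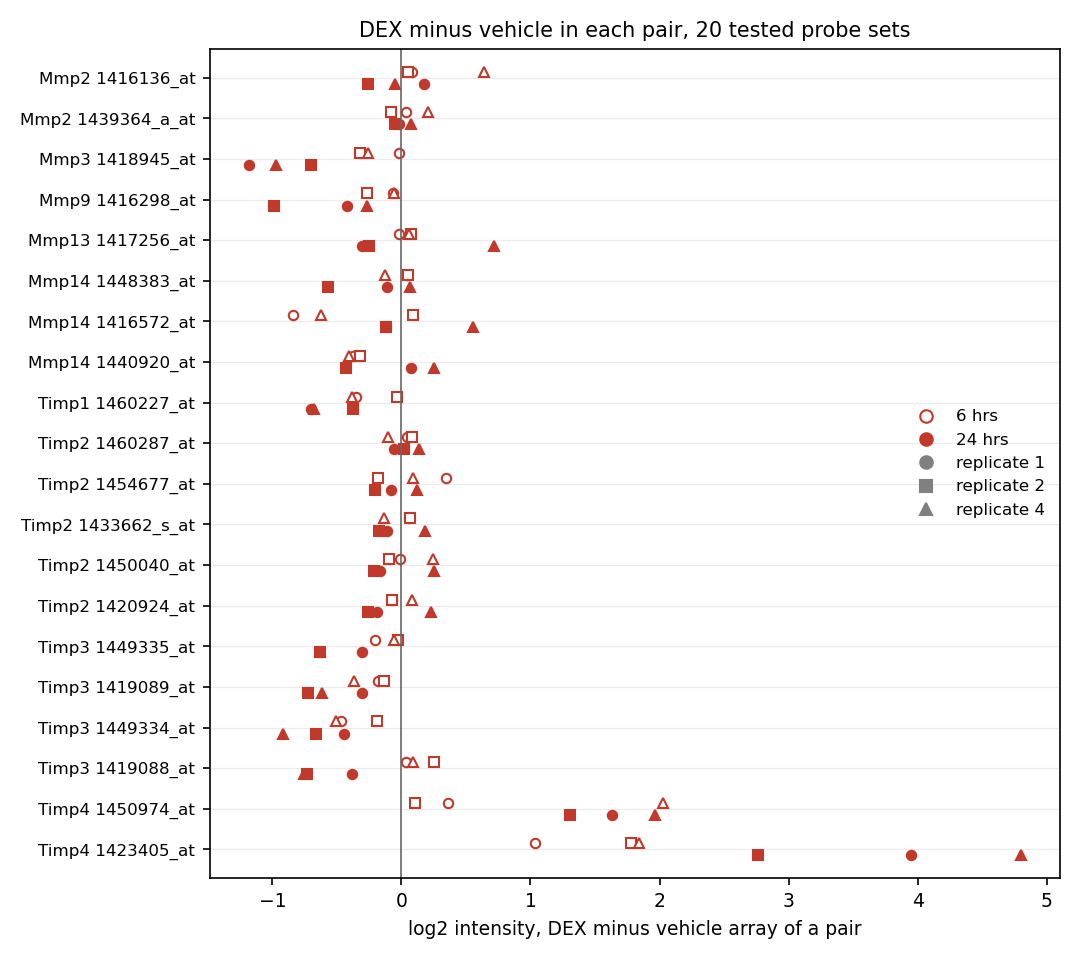
Log2 intensity of the DEX array minus that of the vehicle array of the same replicate number, for the 20 tested probe sets (rows), at 6 hrs (open symbols) and 24 hrs (filled symbols), with a symbol shape for each replicate. Both Timp4 probe sets lie right of 0 in 6 of 6 pairs, reaching 4.80 on 1423405_at, while the probe sets of Mmp3, Mmp9 and Timp1 and 3 of 4 of Timp3 lie left of 0 in 6 of 6 pairs.

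Timp4 is a secreted inhibitor known for a narrow tissue distribution, with high levels in heart and fat. On probe set 1423405_at its intensities were 32.2, 49.8 and 43.3 on the DEX arrays of replicates 1, 2 and 4 at 6 hrs, against 15.7, 14.5 and 12.1 on the vehicle arrays. At 24 hrs they were 162, 125 and 243 with DEX and 10.5, 18.3 and 8.72 with vehicle. The groups did not overlap at either time, and the lowest DEX array at 24 hrs was above every other array outside that group. The means were 41.8 ± 8.90 with DEX and 14.1 ± 1.84 with vehicle at 6 hrs, and 177 ± 60.6 with DEX and 12.5 ± 5.12 with vehicle at 24 hrs (SD, n = 3 each). The log2 fold change was 1.55 (SE 0.32) at 6 hrs, where the adjusted p of 0.143 missed the threshold, and 3.84 (SE 0.32), or 14.3-fold, at 24 hrs with an adjusted p of 6.96e-04 by limma. Over both times it was 2.69 (SE 0.22) with an adjusted p of 2.04e-04. Within the hybridization days that held 2 DEX and 2 vehicle arrays it was 1.41 at 6 hrs and 4.37 at 24 hrs.

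The second Timp4 probe set, 1450974_at, has the higher mean log2 intensity and stands for the gene by the rule used here. It read 29.2, 32.0 and 68.1 with DEX and 22.7, 29.7 and 16.7 with vehicle at 6 hrs, where the groups overlapped, and 121, 116 and 142 with DEX against 38.8, 47.0 and 36.5 with vehicle at 24 hrs, where they did not. Its log2 fold change was 0.83 (SE 0.31) at 6 hrs, 1.64 (SE 0.31) at 24 hrs with an adjusted p of 0.0749 by limma, and 1.23 (SE 0.22) over both times with an adjusted p of 0.0310. Replicate 4 alone made most of the difference at 6 hrs, with 2.03 against 0.36 and 0.11 in the other pairs, and within the day that holds those 2 pairs the value was 0.23. The call over both times was lost without any 1 of the 6 arrays at 24 hrs, or of the vehicle arrays of replicates 1 and 4 at 6 hrs (adjusted p 0.0547 to 0.104). Both probe sets were higher with DEX in 6 of 6 pairs, as were 4.29% of all tested probe sets. At 24 hrs all DEX arrays lay above all vehicle arrays on both, as on 8.45% of all, and at 6 hrs on 1423405_at alone, as on 3.04% of all.

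Both Timp4 probe sets passed the intensity minimum only through the DEX arrays at 24 hrs, and the vehicle arrays stayed under 50 throughout, so the size of the fold rests on intensities close to background. With 16 added to every intensity before log2, the change of 1423405_at at 24 hrs was 2.72 (adjusted p 2.73e-04 by limma). With no intensity filter its adjusted p was 0.00513 at 24 hrs and 0.00178 over both times, while 1450974_at no longer passed over both times (0.127). The difference of the DEX effect of 1423405_at between 24 and 6 hrs was 2.28 (SE 0.45, 95% interval 1.30 to 3.27), with an unadjusted p of 3.50e-04 and an adjusted p of 1 by limma. No probe set passed that test among all 20897 (0%, with 758 at an unadjusted p under 0.05).

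**Figure D2:**
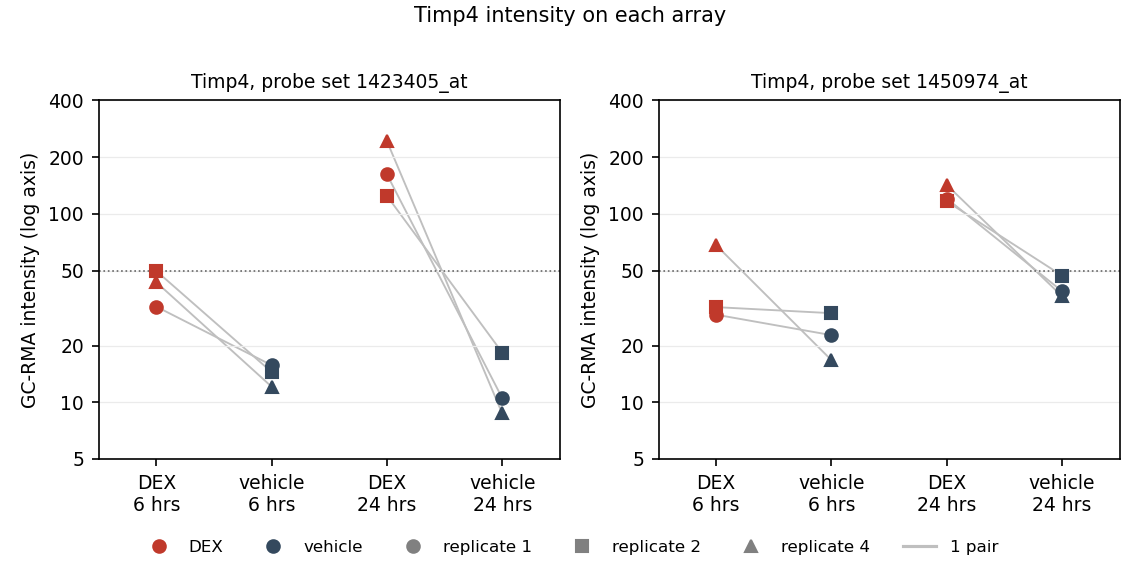
GC-RMA intensity (log axis) of the 2 Timp4 probe sets on each of the 12 arrays, DEX left of vehicle at each time, with lines joining the arrays of 1 replicate number; the dotted line marks the minimum mean of 50. On 1423405_at the DEX arrays at 24 hrs read 125 to 243 and the vehicle arrays 8.72 to 18.3.

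The RefSeq promoter window of Timp4 is shown because this gene held the called probe sets. The windows run from 250 bases before to 50 bases after the annotated start, and 8 of the 10 genes have one (Mmp2 and Mmp9 do not). It lies on the minus strand at chr6:115252156-115252455 (GRCm38.p6) and reads, 5′ to 3′,
Timp4: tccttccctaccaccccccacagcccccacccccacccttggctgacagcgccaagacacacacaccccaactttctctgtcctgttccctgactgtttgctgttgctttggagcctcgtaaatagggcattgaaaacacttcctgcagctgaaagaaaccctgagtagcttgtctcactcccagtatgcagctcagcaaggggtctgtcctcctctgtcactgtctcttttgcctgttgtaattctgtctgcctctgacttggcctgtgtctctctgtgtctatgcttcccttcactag
On either strand this window held neither the glucocorticoid receptor half-site AGAACA, found in 19.0% of all 32851 windows, nor the AP-1 motif TGANTCA (7.81%), the TATA box TATAAA (13.6%) or the GC box GGGCGG (35.7%). The GC box was present in 5 of the 8 windows, those of Mmp11, Mmp14, Timp1, Timp2 and Timp3, and the half-site in that of Mmp11.

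Timp1, a broadly secreted inhibitor and an established AP-1 target in other cells, had intensities of 2366, 2716 and 3568 with DEX and 3022, 2779 and 4652 with vehicle at 6 hrs. At 24 hrs it read 1900, 2408 and 1713 with DEX, against 3082, 3128 and 2746 with vehicle. The groups overlapped at 6 hrs and were separate at 24 hrs, with every DEX array below every vehicle array. Its log2 fold change was -0.26 (SE 0.23) at 6 hrs, -0.59 (SE 0.23) at 24 hrs and -0.42 (SE 0.17) over both times, with adjusted p of 1, 0.687 and 0.690 by limma. With the replicate pairs as a block the adjusted p was 0.0661 at 24 hrs and 0.0555 over both times, and 0.0471 and 0.0360 with the day as a block in place of the pairs.

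Timp3 stands out among the inhibitors as the one that binds to the matrix. Its representing probe set 1449335_at read 1972, 1800 and 2599 with DEX and 2268, 1837 and 2701 with vehicle at 6 hrs, and 1720, 1368 and 1897 with DEX and 2130, 2116 and 2939 with vehicle at 24 hrs. At 24 hrs the 2 groups did not overlap. DEX minus vehicle was -0.10 on the log2 scale (SE 0.22) at 6 hrs, -0.52 (SE 0.22) at 24 hrs and -0.31 (SE 0.16) over both times, and none passed (adjusted p 1, 0.751 and 1.00 by limma). The other 3 probe sets had log2 fold changes of -0.55, -0.67 and -0.62 at 24 hrs. At that time no Timp3 probe set passed with a block either. Adjusted p by limma ran from 0.051 to 0.076 with the replicate pairs as a block and from 0.073 to 0.154 with the day. Only 1449334_at passed over both times with the replicate pairs as a block, at a log2 fold change of -0.53 and an adjusted p of 0.0281, but neither without a block (1.00) nor with hybridization day as a block (0.0793).

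Timp2, which also helps to activate the Mmp2 precursor on the cell surface, had the most probe sets and the smallest differences. On 1460287_at it read 1772, 1973 and 2940 with DEX and 1723, 1863 and 3158 with vehicle at 6 hrs, and 2832, 3258 and 3316 with DEX and 2945, 3211 and 3018 with vehicle at 24 hrs. DEX and vehicle arrays were interleaved at both times. The log2 fold change over both times was 0.02 (95% interval -0.37 to 0.41), and on the other 4 tested probe sets it lay between -0.05 and 0.02. The 6th probe set, 1437081_at, stayed at or below 8.79 on every array and was not tested.

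Of the proteases, the stromelysin Mmp3, which cuts proteoglycans and activates other metalloproteinases, had the lowest log2 fold change over both times among the representing probe sets. Its intensities were 382, 431 and 132 with DEX and 387, 540 and 158 with vehicle at 6 hrs, and 27.6, 71.6 and 40.9 with DEX and 62.6, 116 and 80.4 with vehicle at 24 hrs. Each DEX array was below the vehicle array of its own number, yet the groups overlapped at both times because the replicates were far apart. On the log2 scale the change was -0.20 (SE 0.56) at 6 hrs, -0.95 (SE 0.56) at 24 hrs and -0.58 (SE 0.39) over both times, with adjusted p of 1, 0.954 and 1.00 by limma. With the replicate pairs as a block, Mmp3 passed at 24 hrs (adjusted p 0.0174) and over both times (0.0199), and with hybridization day as a block at 24 hrs (0.0383) but not over both times (0.0613). Within the day that held replicates 1 and 4 at 24 hrs Mmp3 had a log2 fold change of -1.08 (adjusted p 0.173 by limma), and Timp1 one of -0.69 (0.155). The difference of its DEX effect between the times was -0.75 (95% interval -2.49 to 0.98).

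**Figure D3:**
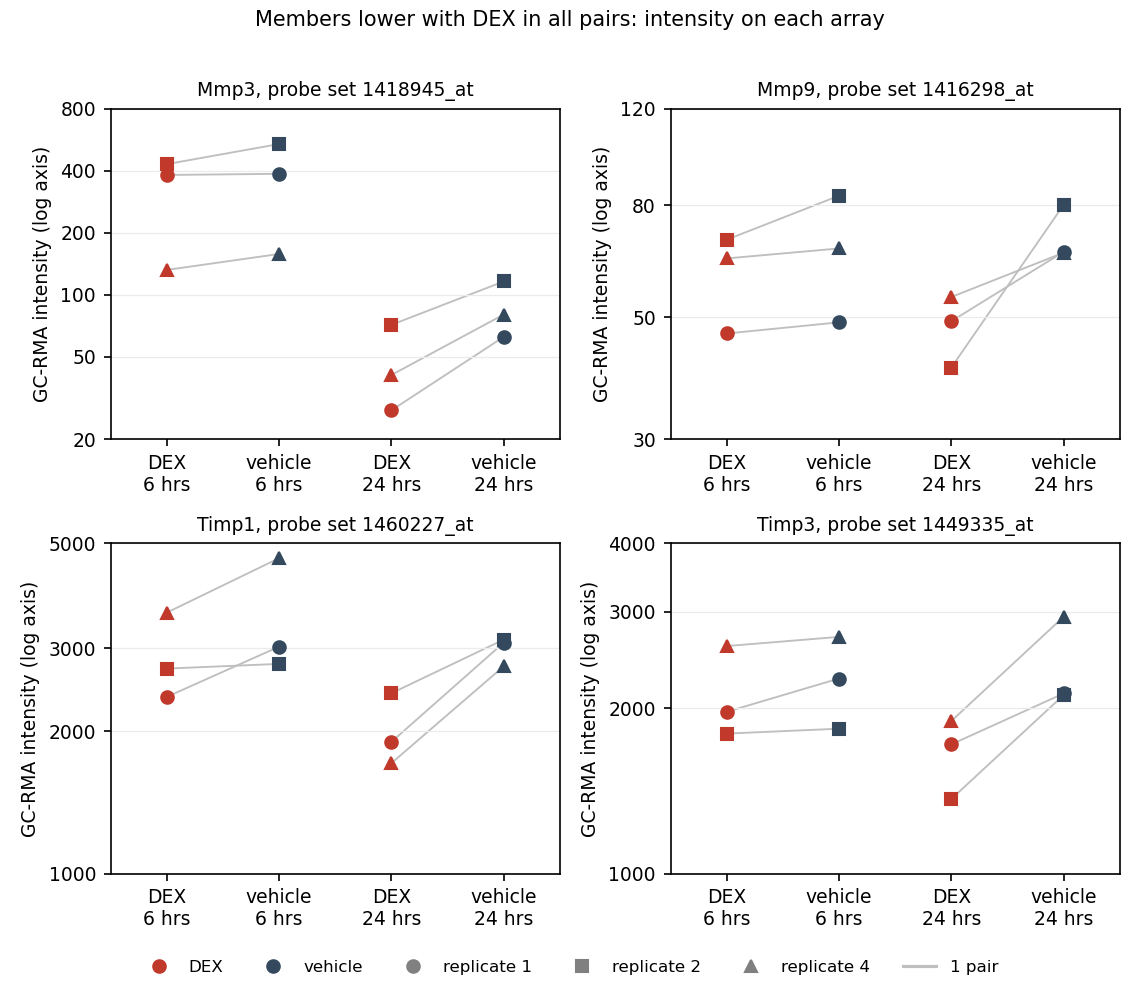
GC-RMA intensity (log axes, each panel with its own range) of Mmp3, Mmp9, Timp1 and Timp3 on each of the 12 arrays, DEX left of vehicle at each time, with lines joining the arrays of 1 replicate number. Each line runs upwards to its vehicle array in 6 of 6 pairs, and the DEX and vehicle arrays at 24 hrs are separate for Mmp9, Timp1 and Timp3 but overlap for Mmp3.

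Mmp9, a gelatinase made in the growth plate mainly by osteoclast-lineage cells, lay close to the intensity minimum. On 1416298_at it read 46.7, 69.3 and 64.0 with DEX and 49.0, 83.3 and 66.8 with vehicle at 6 hrs, and 49.2, 40.5 and 54.5 with DEX and 65.8, 80.2 and 65.6 with vehicle at 24 hrs. All DEX arrays were below all vehicle arrays at 24 hrs. At 24 hrs the log2 fold change was -0.56 (SE 0.23), with an adjusted p of 0.720 by limma and 0.129 with the replicate pairs as a block. Its other probe set, 1448291_at, stayed under 50 on every array. The summed intensity of the 12 macrophage genes at 24 hrs was 668 to 845 with DEX and 839 to 1020 with vehicle, that of the 8 osteoclast genes 500 to 557 with DEX and 498 to 615 with vehicle, and that of the 6 neutrophil genes, none of which reached the minimum, 101 to 134 with DEX and 51.2 to 133 with vehicle. Ctsk alone made most of the osteoclast sum, with 304 to 384 with DEX and 306 to 374 with vehicle. None of the 6 macrophage and 3 osteoclast genes tested passed at 24 hrs, where 0.287% of all tested probe sets did. Of the macrophage genes Ptprc, Tyrobp, Fcgr1, C1qa, C1qb and C1qc, and of the osteoclast genes Calcr, Ocstamp, Dcstamp, Oscar and Atp6v0d2, stayed below the minimum. The part of these cells in the Mmp9 values was not tested.

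Counted over the set, 6 of 20 tested probe sets, from the 4 genes Mmp3, Mmp9, Timp1 and Timp3, were lower with DEX in 6 of 6 pairs, as were 4.71% of all tested probe sets. At 24 hrs 5 of 20, of Mmp9, Timp1 and Timp3, had all DEX arrays below all vehicle arrays, as had 10.9% of all, and at 6 hrs none had, against 2.96% of all. Probe sets of 1 gene are not separate observations, and 3 of the 6 and 3 of the 5 belong to Timp3. With the replicate pairs as a block, 2 of 20 probe sets passed at 24 hrs (1423405_at of Timp4 and Mmp3), where 2.15% of all did, and 4 over both times (both of Timp4, Mmp3 and 1449334_at of Timp3), where 3.2% did. With hybridization day as a block, 4 passed at 24 hrs (both of Timp4, Mmp3 and Timp1), against 2.18% of all, and 3 over both times (both of Timp4 and Timp1), against 2.87%.

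Mmp13, the main collagenase of hypertrophic cartilage, was abundant and did not separate by treatment. Its intensities were 2246, 2024 and 2822 with DEX and 2280, 1921 and 2717 with vehicle at 6 hrs, and 2919, 3447 and 3665 with DEX and 3608, 4111 and 2225 with vehicle at 24 hrs. The groups overlapped at both times. The log2 fold change was 0.04 (SE 0.25) at 6 hrs, 0.05 (SE 0.25) at 24 hrs and, over both times, 0.04 (95% interval -0.34 to 0.43). The summed intensity of the 6 hypertrophic chondrocyte genes at 24 hrs was 5326 to 6302 with DEX and 3106 to 3819 with vehicle. At 6 hrs the sums overlapped, with 3299.9 to 7304.1 with DEX and 2846.8 to 6658.5 with vehicle. None of the 6 genes passed at 24 hrs without a block, and 3 did with the replicate pairs as a block, where 2.15% of all did. The part of these genes in the Mmp13 values was not tested.

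Promoter windows of Mmp3 and Mmp13 are shown beside each other because they are the 2 of the 8 with the AP-1 motif in the exact letters TGANTCA. They are also the 2 with the TATA box letters TATAAA. Both are on the plus strand of chromosome 9, at chr9:7445572-7445871 and chr9:7272264-7272563 (RefSeq, GRCm38.p6). Capitals mark TGANTCA and TATAAA, searched on both strands. Variants of these letters were not searched, so the other windows may hold some.
Mmp3: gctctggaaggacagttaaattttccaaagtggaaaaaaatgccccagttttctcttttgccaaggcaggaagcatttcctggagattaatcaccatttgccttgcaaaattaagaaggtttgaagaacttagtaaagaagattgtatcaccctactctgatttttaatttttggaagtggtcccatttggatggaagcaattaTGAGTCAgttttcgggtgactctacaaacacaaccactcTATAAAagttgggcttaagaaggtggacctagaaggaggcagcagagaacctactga
Mmp13: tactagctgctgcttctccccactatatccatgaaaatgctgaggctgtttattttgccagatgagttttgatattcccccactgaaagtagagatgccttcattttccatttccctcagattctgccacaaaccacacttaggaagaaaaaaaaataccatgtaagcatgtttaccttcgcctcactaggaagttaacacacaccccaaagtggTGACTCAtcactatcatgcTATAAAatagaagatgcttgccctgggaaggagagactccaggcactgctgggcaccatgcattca
The AP-1 motif began 46 bases before the annotated start in Mmp3 and 35 in Mmp13, and the TATA box 7 and 16 bases before it. A match is a description of these letters and was not tested as a binding site.

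The gelatinase Mmp2 and the membrane-anchored Mmp14, which activates the Mmp2 precursor, had no probe set past the threshold either. Mmp2 on 1416136_at read 859, 974 and 871 with DEX and 812, 940 and 558 with vehicle at 6 hrs, and 1073, 1323 and 1036 with DEX and 953, 1581 and 1072 with vehicle at 24 hrs, so that both times overlapped. Its log2 fold change over both times was 0.11 (95% interval -0.27 to 0.48), and 0.03 on the second probe set. Mmp14 on 1448383_at read 475, 553 and 545 with DEX and 460, 535 and 596 with vehicle at 6 hrs, and 831, 635 and 723 with DEX and 897, 944 and 690 with vehicle at 24 hrs. The groups overlapped here too, and the log2 fold change over both times was -0.11 (95% interval -0.39 to 0.17). Mmp11, or stromelysin-3, read 3.04 to 24.0 with DEX and 13.3 to 30.6 with vehicle at 6 hrs, and 29.3 to 49.5 with DEX and 46.9 to 51.1 with vehicle at 24 hrs.

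Probe sets of the same gene moved unequally between the hybridization days at 6 hrs, and the spread of a test differed with them. On 9 of the 23 probe sets the 4 arrays of the third day lay below all 8 others. These were 5 of Timp2, 2 of Mmp14, 1 of Timp3 and that of Mmp11. The share of all probe sets that lay so was not counted, so the 9 cannot be read as particular to these genes. Timp2 on 1420924_at read 63.6 to 76.7 on that day and 606 to 1011 on the other arrays, a log2 difference of -3.16 from the 2 arrays of replicate 4 at 6 hrs, while 1454677_at differed by -0.27. For Timp3 the same difference was -2.67 on 1419088_at and -0.43 on 1449335_at, and for Mmp14 it was -2.23 on 1416572_at and -0.18 on 1448383_at. The log2 fold change of Timp2 1420924_at had an SE of 0.92 at 6 hrs, against 0.17 on 1454677_at. At 24 hrs the SEs were the same, since the groups share 1 estimate of the spread. Why probe sets of a gene differed by day was not tested.

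**Figure D4:**
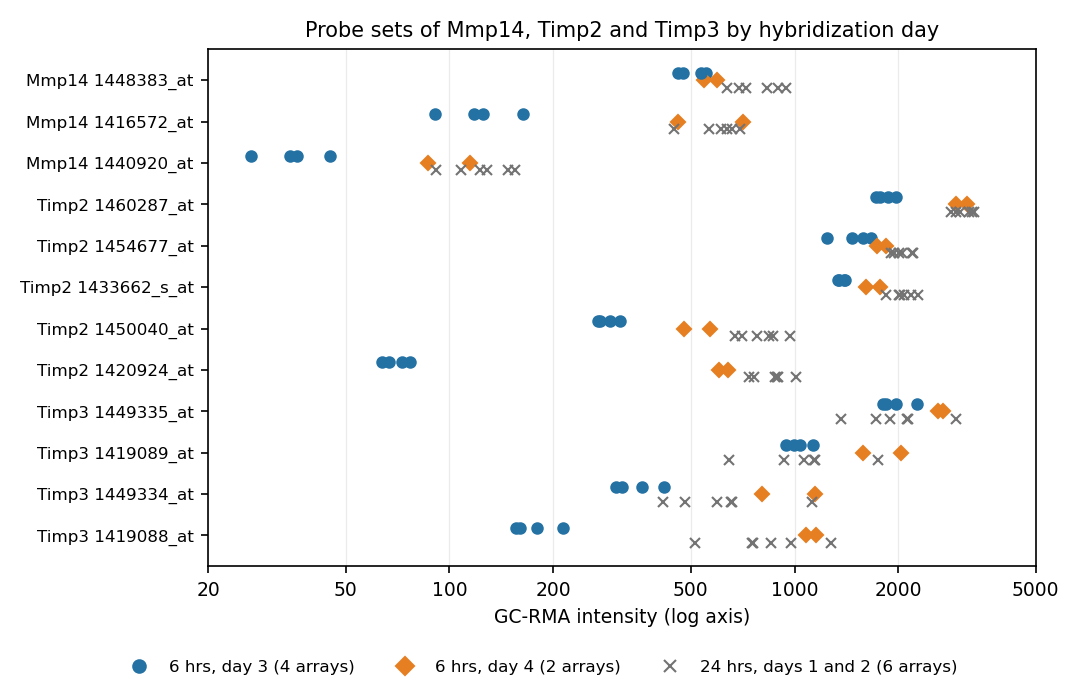
GC-RMA intensity (log axis) of the 12 tested probe sets of Mmp14, Timp2 and Timp3 on the 4 arrays of the third hybridization day (circles), the other 2 arrays at 6 hrs (diamonds) and the 6 arrays at 24 hrs (crosses), DEX and vehicle together. Timp2 1420924_at lies at 63.6 to 76.7 on the third day and at 606 to 1011 on the other arrays.

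Across time in vehicle, no member probe set passed, where 0.00957% of all tested probe sets did. An unadjusted p under 0.05 by limma was found on 9 of 20, and on 6367 of all 20897. Mmp3 had the most negative value, with 62.6, 116 and 80.4 at 24 hrs and 387, 540 and 158 at 6 hrs, which is a log2 difference of -1.94 (SE 0.56, adjusted p 0.0856 by limma). These values did not overlap, but replicate 4 at 6 hrs, hybridized on another day, was the closest to the 24 hr arrays. Mmp14 on 1448383_at was 0.66 higher at 24 hrs on the log2 scale (SE 0.18, adjusted p 0.0801). No hybridization day held both times, so time and day cannot be told apart.

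Of the other 17 metalloproteinase genes listed, 12 were on the array under these symbols and 3 were tested, and none passed at either time or over the time course. The smallest unadjusted p over both times belonged to Mmp17, a membrane-anchored member, with a log2 fold change of 0.70 (SE 0.35), and to Mmp16, another one, with -0.21 (SE 0.14). Mmp17 reached the intensity minimum only through the DEX arrays at 24 hrs, with a mean of 56.1. At that time it read 48.7, 55.8 and 63.7 with DEX and 49.8, 10.4 and 40.5 with vehicle. Over both times it was higher with DEX in 4 pairs and lower in 2. Of 11 further regulators of metalloproteinases, such as the membrane inhibitor Reck, 8 were tested and none passed in these comparisons. Tfpi2, a secreted protease inhibitor, had a log2 fold change of -0.41 (SE 0.25) over both times and A2m, a plasma protease trap, 0.18 (SE 0.20).

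In the plasminogen system and the convertases that activate metalloproteinase precursors, 1 of 11 tested genes of 16 listed fell over both times, against 0.747% of all tested probe sets called. This was Plat, the tissue plasminogen activator, with 60.9, 55.2 and 52.2 with DEX and 103, 133 and 116 with vehicle at 6 hrs, and 66.4, 45.6 and 77.4 with DEX and 155, 101 and 127 with vehicle at 24 hrs. Every DEX array was below every vehicle array at both times. The same held for 2.96% of all tested probe sets at 6 hrs and 10.9% at 24 hrs. The log2 fold change of Plat over both times was -1.05 (SE 0.16) with an adjusted p of 0.0113 by limma. With the replicate pairs as a block it also passed at 6 hrs (adjusted p 0.0296, where 0.904% of all did) and at 24 hrs (0.0218, where 2.15% did), against 0.170 and 0.148 without it. In that fit Serpinb2, an inhibitor of plasminogen activators, also passed over both times, where 3.2% of all did. Its log2 fold change was -1.15, with an adjusted p of 0.0109 by limma, against 0.770 without the block. Serpinb2 reached the intensity minimum only through the vehicle arrays at 6 hrs, with a mean of 56.9, against 23.8 with DEX. At 24 hrs its means were 18.8 with DEX and 41.1 with vehicle, so its fold rests on intensities close to background. The median log2 fold change of the 11 genes was -0.14, against -0.02 over all probe sets.

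None of the 6 tested AP-1 subunit genes of 7 passed without a block. Fosl1, a Fos family member, read 297, 250 and 275 with DEX and 479, 500 and 538 with vehicle at 6 hrs, and 214, 196 and 180 with DEX and 556, 404 and 222 with vehicle at 24 hrs. The groups did not overlap at either time. DEX lay below vehicle in this way on 2.96% of all tested probe sets at 6 hrs and 10.9% at 24 hrs. At 24 hrs the gap of Fosl1 was narrow, from 214 with DEX to 222 with vehicle. Its log2 fold change over both times was -0.90 (SE 0.19), with an adjusted p of 0.0788 by limma. Jun had -0.61 (SE 0.18) over both times. With the replicate pairs as a block Fosl1 (0.0177), Jun (0.0282) and Fosl2 (0.0439) passed over both times, where 3.2% of all tested probe sets did, and Jun also at 6 hrs (0.0383, where 0.904% did). The median of the 6 genes over both times was -0.42.

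Among 14 matrix genes that these proteases can cut, all of them tested, none passed without a block. The basement membrane collagen genes Col4a1 and Col4a2 had the smallest unadjusted p, with log2 fold changes of 1.04 (SE 0.30) and 0.88 (SE 0.28) over both times and adjusted p of 0.291 and 0.422 by limma. With the replicate pairs as a block both passed over both times (0.00199 and 0.00852, where 3.2% of all did) and at 24 hrs (0.00695 and 0.0259, where 2.15% did), and Col4a1 also at 6 hrs (0.0461, where 0.904% did). The median of the 14 was 0.06.

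Over the 12 arrays, on log2 values centred on the hybridization day, the genes most like Timp4 (1450974_at) were Slc38a4, Wnk4 and Serpina3n, with Pearson r of 0.987, 0.975 and 0.969, and those most like Mmp3 were Gpc1, Igsf8 and Tmem26, with r of 0.963, 0.950 and 0.949. They were the 3 highest of the 11053 genes with a tested probe set and are given as a description, since all points share the DEX contrast and the days. Their log2 fold changes over both times were 0.38, 0.68 and 0.90 for the genes like Timp4, and -0.43, -0.30 and -0.85 for those like Mmp3.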

How the data were processed

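RNA of mouse primary chondrocytes was measured on 12 Affymetrix arrays. The authors computed linear intensity values with GC-RMA and deposited them (which version was not given in the sources used here). The deposited text records of the single arrays gave the 4 hybridization days, a value of unit other, and 2 arrays titled replicate 4 carry another number there. The title's number was kept. GC-RMA summarises each probe set over the arrays of a run together, so a value depends on the other arrays in it.

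Each intensity was log2-transformed as deposited, with nothing added. The 20897 probe sets whose mean was 50 or more in 1 group or several were tested with limma 3.58.1 in R 4.3.3 over all 12 arrays, 1 mean per group, two-sided, with adjusted p by Benjamini-Hochberg and a threshold of 0.05. Tables and figures used Python 3.11.15, pandas 2.3.3 and matplotlib 3.10.9. The fit was tested on simulated data. Arrays have no read depth, and their number limits the precision. Nothing in the sources used here ties a replicate number to a cell isolation, so p-values measure the spread between these samples.

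Same-numbered DEX and vehicle arrays deviated together from their group means (r of 0.681, 0.632 and 0.863 at 6 hrs, and 0.158, 0.301 and 0.220 at 24 hrs), so the numbers were taken to pair arrays within a time. Differently numbered DEX and vehicle arrays of one day also deviated together at 6 hrs (r of 0.506 and 0.571), but hardly at 24 hrs (0.0181 and 0.00825). Same-numbered arrays also shared a hybridization day, and what part of r came from the day was not tested. Values with the replicate pairs as a block, such as the 2 probe sets called at 24 hrs against 1 without it, are given where they change the call of a member or of a pathway list gene that is named.

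The platform annotation gives a single symbol for 34958 probe sets. Those with several (932) or none listed (9211) were left unnamed. By the naming rule, all 10 members are named with their probe sets, and from each pathway list the genes past the threshold or else the 2 with the smallest unadjusted p over both times. Serpinb2 and Fosl2, which passed only with a block, and Chad, from a marker list, are named in addition, after their values were seen. A gene is represented by its tested probe set with the highest mean log2 intensity. Members and lists were chosen with earlier results of these data known. Alternatives were other blocks, filters, scaling, a pseudocount, a 2-group Welch test and leaving out arrays. Promoter windows are RefSeq's, GRCm38.p6.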

Additional observations from a re-analysis of the deposited data

Results flagged for a closer look

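On probe set 1419088_at, Timp3 was higher with DEX in 3 of 3 pairs at 6 hrs (log2 differences of 0.03, 0.25 and 0.09) and lower in 3 of 3 pairs at 24 hrs (-0.38, -0.73 and -0.75). The difference of the DEX effect, 24 minus 6 hrs, was -0.75 (SE 1.12, adjusted p 1 by limma, and 0.280 with the replicate pairs as a block), so the test of the difference did not pass. Its other 3 probe sets were lower with DEX in 6 of 6 pairs. This probe set read 156 to 214 on the 4 arrays of the third hybridization day and 516 to 1279 on the others.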

How the results depend on the processing

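Without a block, 0 member probe sets passed at 6 hrs and 1 at 24 hrs, with 2 over both times, all of them Timp4. At 24 hrs the count was 2 with the replicate pairs as a block (2.15% of all tested probe sets), 4 with hybridization day as a block (2.18%), 2 with 16 added before log2 (0.388%), 2 with quantile normalization (0.412%), 2 with only the arrays compared (0.780%), 2 within days that held 2 DEX and 2 vehicle arrays (0.608%), 0 with a mean of 50 asked in all 4 groups (0.243%) and 0 with the methods' Welch test, which called 0 of all 20897 (4 member probe sets had an unadjusted p under 0.05). Over both times it was 4 with the replicate pairs as a block (3.2%), 1 with no filter (0.162%), 0 with a mean of 50 in all 4 groups (0.699%), which leaves Timp4 untested, and 0 with the Welch test, which called 38 of all (0.182%), with 2 member probe sets at an unadjusted p under 0.05. The Welch test takes each probe set's own spread, and over both times all DEX against all vehicle arrays. The study used a Welch ANOVA with another filter and cut-off, so these counts are not those of its test. With the arrays of the third hybridization day left out, an alternative chosen after seeing the data, the counts were 1 at 6 hrs (Timp4, replicate 4 alone, assumed to vary like the other groups), 2 at 24 hrs and 1 across time in vehicle. Leaving out 1 array at a time gave 1 to 2 at 24 hrs, 1 to 2 over both times and 0 to 10 across time in vehicle, where the 10 came without vehicle replicate 4 at 6 hrs, with 31.7% of all called, and 5 without DEX replicate 4 at 6 hrs, with 14.2%. Timp4 1423405_at passed at 24 hrs and over both times without any 1 array and lost its call with the Welch test only (adjusted p 0.363 and 0.277). Timp4 1450974_at over both times lost its call without any 1 of the 6 arrays at 24 hrs or of vehicle replicates 1 and 4 at 6 hrs (adjusted p 0.0547 to 0.104), with no filter and with the Welch test. Of 665 alternative values of single probe sets, 36 changed sign, none of them past the threshold in either fit. With quantile normalization the log2 fold change at 6 hrs was -0.0084 for Mmp13 and -0.027 for Timp2. Within single days it was 0.047 for Mmp14 at 6 hrs, 0.062 for Mmp2 at 24 hrs and 0.013 for Mmp14 over both times. Without the third day Timp2 had -0.10 at 6 hrs and -0.035 over both times. As the median of a gene's probe sets it was 0.11 for Mmp14 and -0.045 for Timp2 at 24 hrs, and -7.2e-04 for Timp2 over both times. Without 1 array the values at 6 hrs ran from -0.71 to 0.34 for Mmp3, -0.33 to 0.050 for Mmp9, -0.099 to 0.16 for Mmp13, -0.11 to 0.076 for Mmp14, -0.21 to 0.28 for Timp2 and -0.25 to 0.039 for Timp3. At 24 hrs they ran from -0.19 to 0.17 for Mmp2, -0.21 to 0.23 for Mmp13 and -0.0087 to 0.11 for Timp2, and over both times from -0.0012 to 0.21 for Mmp2, -0.087 to 0.13 for Mmp13 and -0.089 to 0.16 for Timp2. The cause of these changes was not tested. Intensities near the minimum of 50 limit what can be read of Timp4, Mmp9 and Mmp11.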
